A study of Mus musculus with 12 samples.

Results

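The nuclear-encoded subunits of the mitochondrial respiratory chain and ATP synthase were followed across perfused mouse hearts. They were taken by symbol, as protein-coding genes outside the mitochondrial chromosome whose names begin with Nduf (followed by a, b, c, s or v and a number), Sdha to Sdhd, Uqcr, Cox4 to Cox8, or Atp5. This rule found 84 of the 52858 genes in the files and used no expression value. By complex they were 35 genes of complex I, 4 of complex II, 8 of complex III, 20 of complex IV and 17 of complex V. Ndufa4 and Ndufa4l2 were counted with complex IV, where the Ndufa4 protein is found. Atp5s and Atp5sl carry the Atp5 name but are now called Dmac2l and Dmac2, and are not classical subunits of ATP synthase. Cox7a2l is related to Cox7a2 in sequence and is known for joining complexes III and IV into supercomplexes. Whether the Cox7a2l protein of these mice does so was not tested.

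RNA was sequenced from hearts of male C57BL/6J mice and of Slit2-Tg mice aged 3 to 5 months, with 3 libraries in each of 4 groups. Slit2-Tg mice carry a full-length human Slit2 cDNA driven by a CMV promoter, which is not restricted to the heart, and C57BL/6J is their background strain. The construct was introduced into eggs of a cross of C57 with CBA, and whether CBA sequence remains in the line was not tested. The comparisons of genotypes cover the transgene and any such sequence together. IR hearts (called C57-IR or Slit2-IR) were isolated, perfused by the Langendorff method for 20 min, made globally ischemic for 20 min and reperfused for 40 min, while hearts of the C57-non-IR and Slit2-non-IR groups were perfused for 80 min without ischemia. All 4 groups were thus perfused ex vivo, and none represents a heart without perfusion. Genotype is stated in the sample labels, whereas IR was read from the letters of the sample titles against the groups of the methods.

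The respiratory chain passes electrons from NADH (complex I) or succinate (complex II) through ubiquinone, complex III and cytochrome c to oxygen at complex IV, and complex V uses the resulting proton gradient to make ATP. Most subunits are encoded in the nucleus and imported, and the rest are encoded in the mitochondrial genome. Heart muscle is rich in mitochondria, and reperfusion of ischemic muscle is known to produce reactive oxygen species at the chain. Several complex IV subunits exist in alternative forms, with Cox6a2, Cox7a1 and Cox8b known as the forms of heart and skeletal muscle and Cox6a1, Cox7a2 and Cox8a as the forms of most other tissues.

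Promoter sequences are shown for muscle and general forms of complex IV. Windows of 300 bases, from 250 bases before to 50 after each start, came from RefSeq (GRCm38.p6) and matched 69 of the 84 genes with 75 windows. Printed are Cox7a1 with its general counterpart Cox7a2, and the highest of all subunits Cox8b with its counterpart Cox8a. Cox6a1 is printed because its window held 2 of the motifs searched. Cox7a1 was picked after its values were seen, as its libraries separated the genotypes by a narrow gap, with no adjusted p under 0.05. Capitals mark the ETS core CCGGAAG, the NRF1 core CGCATGCG (both on either strand) or TATAAA on the coding strand.
Cox7a1, chr7:30183921-30184220, plus strand: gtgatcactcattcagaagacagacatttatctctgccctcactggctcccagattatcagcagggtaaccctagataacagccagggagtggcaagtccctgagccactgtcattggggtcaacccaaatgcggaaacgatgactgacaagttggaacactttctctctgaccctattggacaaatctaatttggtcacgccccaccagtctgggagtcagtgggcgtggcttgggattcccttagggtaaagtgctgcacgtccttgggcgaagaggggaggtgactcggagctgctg
Cox7a2, chr9:79759804-79760103, minus strand: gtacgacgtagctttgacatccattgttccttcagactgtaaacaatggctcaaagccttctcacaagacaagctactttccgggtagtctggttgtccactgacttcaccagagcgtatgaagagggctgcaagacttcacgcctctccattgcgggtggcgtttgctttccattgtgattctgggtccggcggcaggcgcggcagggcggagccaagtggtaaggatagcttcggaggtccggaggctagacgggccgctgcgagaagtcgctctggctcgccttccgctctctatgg
Cox8b, chr7:140900397-140900696, minus strand: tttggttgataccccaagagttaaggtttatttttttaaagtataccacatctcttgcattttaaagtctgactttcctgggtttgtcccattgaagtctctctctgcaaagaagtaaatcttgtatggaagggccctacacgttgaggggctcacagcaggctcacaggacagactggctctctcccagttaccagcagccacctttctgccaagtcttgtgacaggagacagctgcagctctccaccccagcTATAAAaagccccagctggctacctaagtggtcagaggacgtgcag
Cox8a, chr19:7217567-7217866, minus strand: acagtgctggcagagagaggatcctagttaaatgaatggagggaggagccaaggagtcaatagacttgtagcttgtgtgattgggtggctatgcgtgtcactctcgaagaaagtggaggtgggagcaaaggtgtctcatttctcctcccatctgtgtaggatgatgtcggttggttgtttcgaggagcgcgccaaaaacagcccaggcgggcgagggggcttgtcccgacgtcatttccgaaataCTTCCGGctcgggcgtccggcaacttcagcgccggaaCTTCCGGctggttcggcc
Cox6a1, chr5:115348909-115349208, minus strand: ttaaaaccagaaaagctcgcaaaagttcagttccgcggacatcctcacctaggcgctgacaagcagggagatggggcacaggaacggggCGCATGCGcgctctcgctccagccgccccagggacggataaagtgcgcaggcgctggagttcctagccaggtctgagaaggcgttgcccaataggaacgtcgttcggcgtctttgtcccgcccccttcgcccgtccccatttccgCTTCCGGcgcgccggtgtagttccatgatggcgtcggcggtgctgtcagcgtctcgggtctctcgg

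The windows of the muscle forms Cox8b and Cox7a1 held 2 and 7 CpG dinucleotides, against 19 in Cox8a, 20 in Cox7a2 and 32 in Cox6a1. The median was 19 over the windows of the subunits, 20 over those of tested protein-coding genes and 7 over all 32851 promoters of the table. Only 3 of the 75 windows held 7 or fewer, and the other was Cox7b, which is not a muscle form, with 5. The muscle form Cox6a2 had no matched window, so these counts do not describe muscle forms in general. NRF1 and the ETS factor GABP are known regulators of respiratory chain genes, and YY1 is another. The NRF1 core lay in 12% of the subunit windows, the ETS core in 21.3% and the YY1 core AAGATGGC (either strand) in 16%. Over windows of tested protein-coding genes the shares were 3.64%, 16.1% and 4.06%, and over all promoters 1.87%, 8.86% and 2.75%. By gene, 30 of the 69 held at least 1 of the 3 cores, among them 13 of 31 in complex I, 2 of 3 in complex II, 3 of 5 in complex III, 3 of 14 in complex IV and 9 of 16 in complex V. This count has no counterpart here over other genes, and differences between complexes were not tested. TATAAA, searched after Cox8b had been seen, lay in 4% of the subunit windows and in 4.47% of those of tested protein-coding genes. A match of letters does not show binding, and no match says only that these letters are not in the window.

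The libraries held 16601154 to 24841291 reads on genes. FPKM (fragments per kilobase of gene, scaled for the depth of the library) were deposited by the authors, and whole reads could be recovered from 100% of values. A gene was tested if it reached 15 reads summed over libraries and if 3 or more libraries each had what amounts to 10 reads at median depth, which kept 15240 genes and 82 of the 84 subunits. Cox7b2 and Cox8c were not tested. Cox7b2 lay between 0 and 0.40 FPKM, and Cox8c had 0 reads in every library. The labelled tissue was checked against its markers, and all 11 ventricular cardiomyocyte markers were tested, with summed levels of 24598 to 33174 FPKM. Skeletal muscle markers, which share the muscle forms of complex IV, summed to 1.42 to 2.42 FPKM, and Myh4 was at 0 in every library. Atrial markers summed to 1758 FPKM in Slit2-IR replicate 1 against 26.6 to 246 in the other 11 libraries, and the part of this atrial signal in the values of that library was not tested. The transgene is human, so the level of the mouse Slit2 gene does not check the genotype.

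Subunit mRNAs were among the most abundant of the heart. In each library they took 4.90 to 6.07% of the reads on genes. Of the 82 tested, 76 lay in the top 10% of tested genes by mean FPKM and 42 in the top 1%. The median of the gene means was 226 FPKM in complex I, 329 in complex II, 460 in complex III, 380 in complex IV and 324 in complex V. Levels differed far more between subunits than between libraries, as the median coefficient of variation of a subunit over the 12 libraries was 11.4%.

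**Figure D1:**
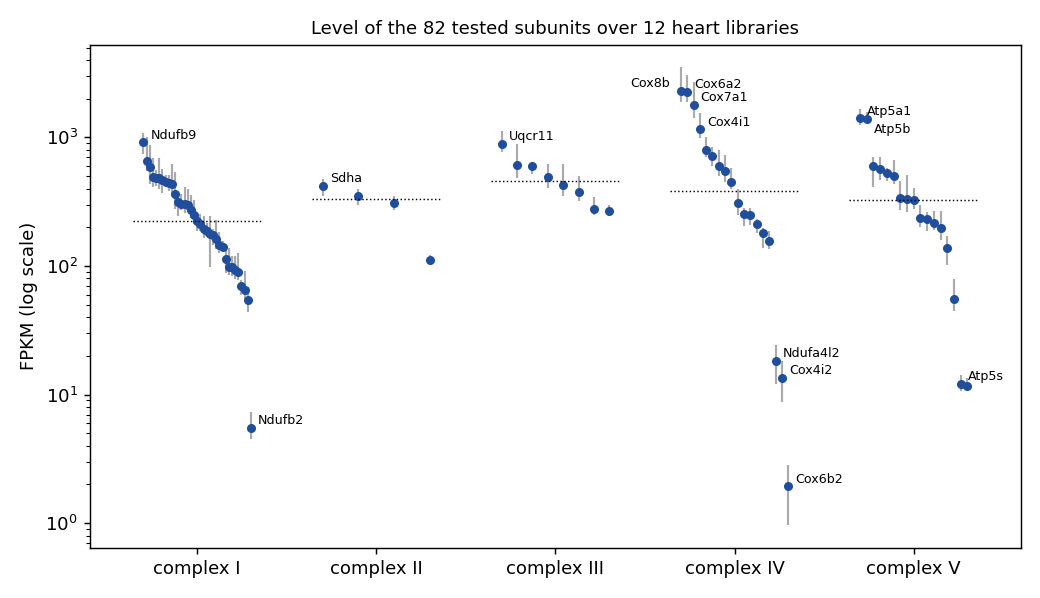
Mean FPKM of each tested subunit over 12 libraries (blue points, log axis) by complex, with grey lines from the lowest to the highest library and a dotted line at the median of the complex. Muscle forms Cox8b, Cox6a2 and Cox7a1 lay at the top, and Cox6b2 at 1.93 FPKM was the lowest.

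The highest subunit of complex I was Ndufb9, an accessory subunit of the membrane arm, at a mean of 914 FPKM (chr15:58933810-58939489, GRCm38, ENSMUSG00000022354). Among the core subunits of complex I, Ndufv1, which holds the NADH site, was at 305 FPKM and Ndufs7 at 300.5. Ndufv2 was at 226 FPKM, Ndufs8 at 213, Ndufs3 at 146 and Ndufs1, which carries iron-sulfur clusters, at 70.5. All 4 genes of complex II were expressed, with the flavoprotein Sdha at 419 FPKM, the iron-sulfur subunit Sdhb at 352, and the membrane anchors Sdhd and Sdhc at 307 and 112. In complex III the small subunit Uqcr11 led at 891 FPKM, the Rieske iron-sulfur protein Uqcrfs1 was at 605, and the core proteins Uqcrc1 and Uqcrc2 were at 280 and 269. The catalytic ATP synthase subunits Atp5a1 and Atp5b were at 1408 and 1394 FPKM. The lowest complex I gene was Ndufb2, at 5.499 FPKM.

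Levels per length depend on which length is used. FPKM uses the listed gene length, the union of all annotated exons, which for 69 of 84 subunits equalled the union in GENCODE M21. For 13 subunits the listed length was more than 3 times that of the principal transcript, and their FPKM understates the level of that transcript accordingly. Where transcripts ranked equally, the longest was taken as principal. The one taken was as long as 4715 bases for Atp5g1 and 4371 for Ndufb2, so their values were corrected little. Atp5l had the largest ratio, 11.8, and its 55.6 FPKM became 658 per length of the principal transcript. On that scale, chosen after the data were seen, Atp5b passed Atp5a1 as the highest of complex V and was the highest of all subunits (3083), Cox7a1 led complex IV (2441), and Ndufb9 and Uqcr11 still led complexes I and III. Sdhb (690) then passed Sdha (596). Length cancels in a ratio between groups, except that it sets the weight of the added 1 in log2(FPKM + 1), which matters for low subunits such as Cox6b2 and Ndufb2.

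Complex IV showed the muscle pattern in every library. Cox8b supplied 87.8 to 93.2% of the summed FPKM of Cox8b and Cox8a, and Cox6a2 supplied 89.7 to 93.2% of that of Cox6a2 and Cox6a1. Cox7a1 made up 77.3 to 82.3% of the Cox7a family, Cox7a2 12.02 to 15.1% and Cox7a2l 5.72 to 7.86%. Cox4i1, the common form of the largest nuclear-encoded subunit, made up at least 98.4% of its pair in every library, and Cox4i2, the form linked to hypoxia and lung, had a mean of 13.5 FPKM. Cox6b1 made up at least 99.6% of its pair, and the testis form Cox6b2 was at 0.972 to 2.81 FPKM. Ndufa4 supplied 95.7 to 97.997% of its pair, and Ndufa4l2, known as a target of hypoxia-inducible factor, had a mean of 18.2 FPKM. The 3 genes for the same proton-carrying subunit c of ATP synthase were all used, with medians over libraries of 61.4% for Atp5g3, 22.9% for Atp5g1 and 15.5% for Atp5g2. With principal transcript lengths the Cox shares moved little, while Atp5g3 was between 73.6 and 79.5% and Atp5g1 only between 9.08 and 11.8%, against 10.1 to 17.1% for Atp5g2. The principal transcript taken was 4715 bases for Atp5g1, against 731 for Atp5g2 and 723 for Atp5g3. The order of Atp5g1 and Atp5g2 thus depends on the length used and on which transcript is taken for Atp5g1. Cox5b and Cox5a are separate subunits, at 449 and 182 FPKM, so no share was formed.

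**Figure D2:**
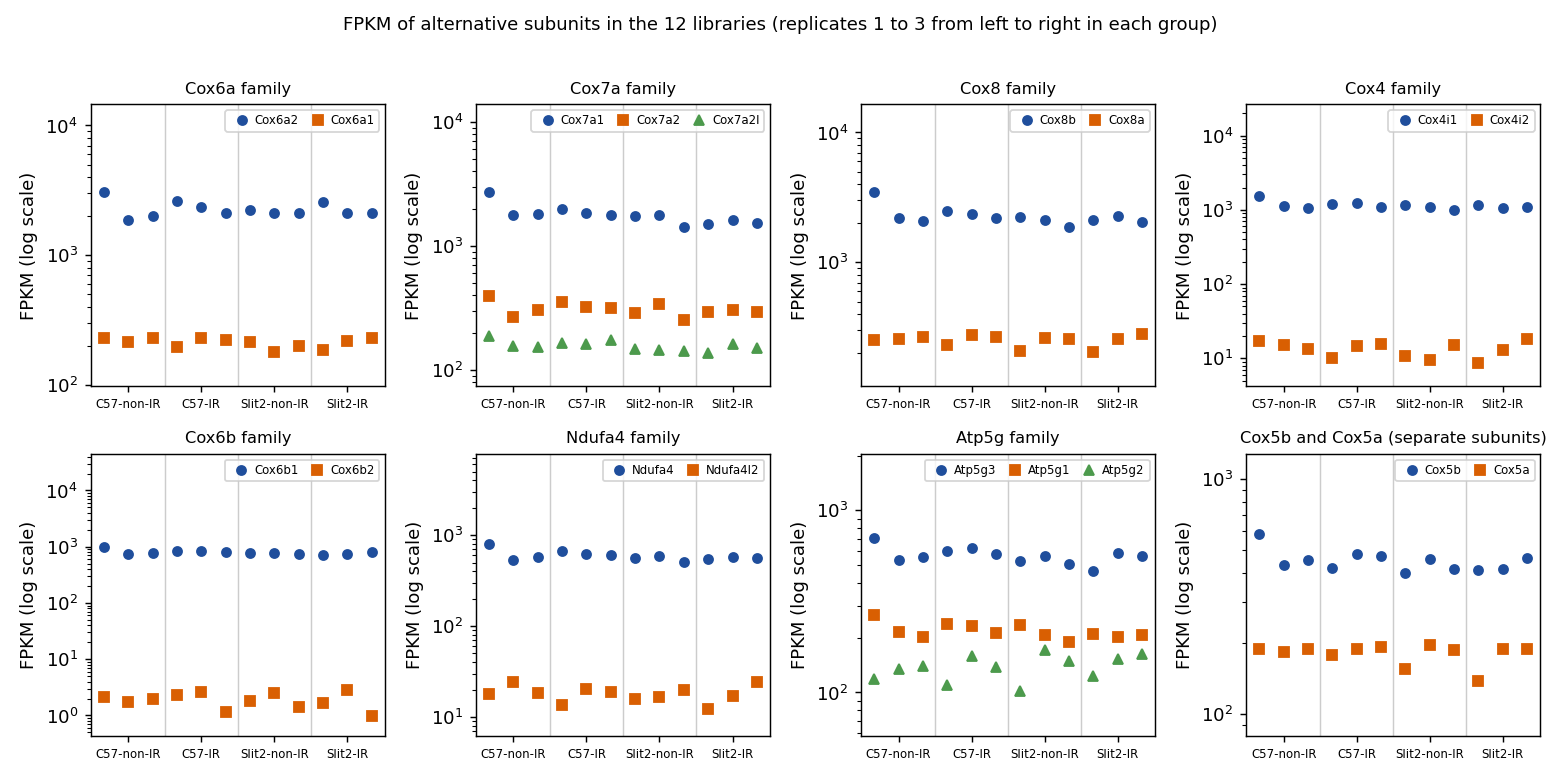
FPKM (log axis) of alternative subunits in the 12 libraries, in the 4 groups, C57BL/6J first and Slit2-Tg second, each without and then with IR, with replicates in order of their number. The leading form stayed above the others in every library, and Cox8b exceeded Cox8a at 2293 against 252 FPKM on average.

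The shares were compared between groups with exact permutation tests that counted both directions, over 66 tests of 11 shares. Cox7a1 held 81.0% ± 1.23 of its family in C57-non-IR (SD, n = 3), 79.0% ± 0.444 in C57-IR, 78.9% ± 0.947 in Slit2-non-IR and 77.6% ± 0.315 in Slit2-IR. In the libraries its share was 82.3, 80.9 and 79.8% in C57-non-IR, 79.2, 79.2 and 78.4% in C57-IR, 79.99, 78.4 and 78.3% in Slit2-non-IR, and 77.9, 77.6 and 77.3% in Slit2-IR. The Slit2-IR libraries were all below the C57-IR libraries, and the 2 non-IR groups overlapped. Averaged over IR states, the share was lower by 1.72 percentage points in Slit2-Tg (exact permutation p = 0.01, 0.22 after Benjamini-Hochberg adjustment over the 66). Averaged over genotypes it was lower by 1.66 points with IR (exact permutation p = 0.005, the smallest these relabelings allow, 0.22 adjusted). None of the 66 passed the adjustment, and 3 libraries against 3 cannot reach an exact p below 0.1.

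The groups were compared with limma on log2(FPKM + 1) over all 15240 tested genes, with Benjamini-Hochberg adjustment and a threshold of 0.05. C57-non-IR replicate 1 stood apart before any comparison. Its summed subunit FPKM was 43469 against 29870 to 36014 in the other libraries. It was the highest of the 12 libraries for 60 of 82 subunits, against 14.8% of all tested genes. At the other end, Slit2-non-IR replicate 3 was the lowest for 41 subunits, against 5.48% of all tested genes. In the mean of centred log2 values over subunits, C57-non-IR replicate 1 was at 0.29, the other 11 libraries lay between -0.16 and 0.08, and the pooled SD within groups was 0.11. C57-non-IR replicate 1 also had the highest summed ventricular cardiomyocyte markers (33174 FPKM, against 24598 to 30293 in the others), the highest endothelial sum (286 FPKM) and the lowest fibroblast sum (113 FPKM). The part of these differences in the subunit values was not tested.

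**Figure D3:**
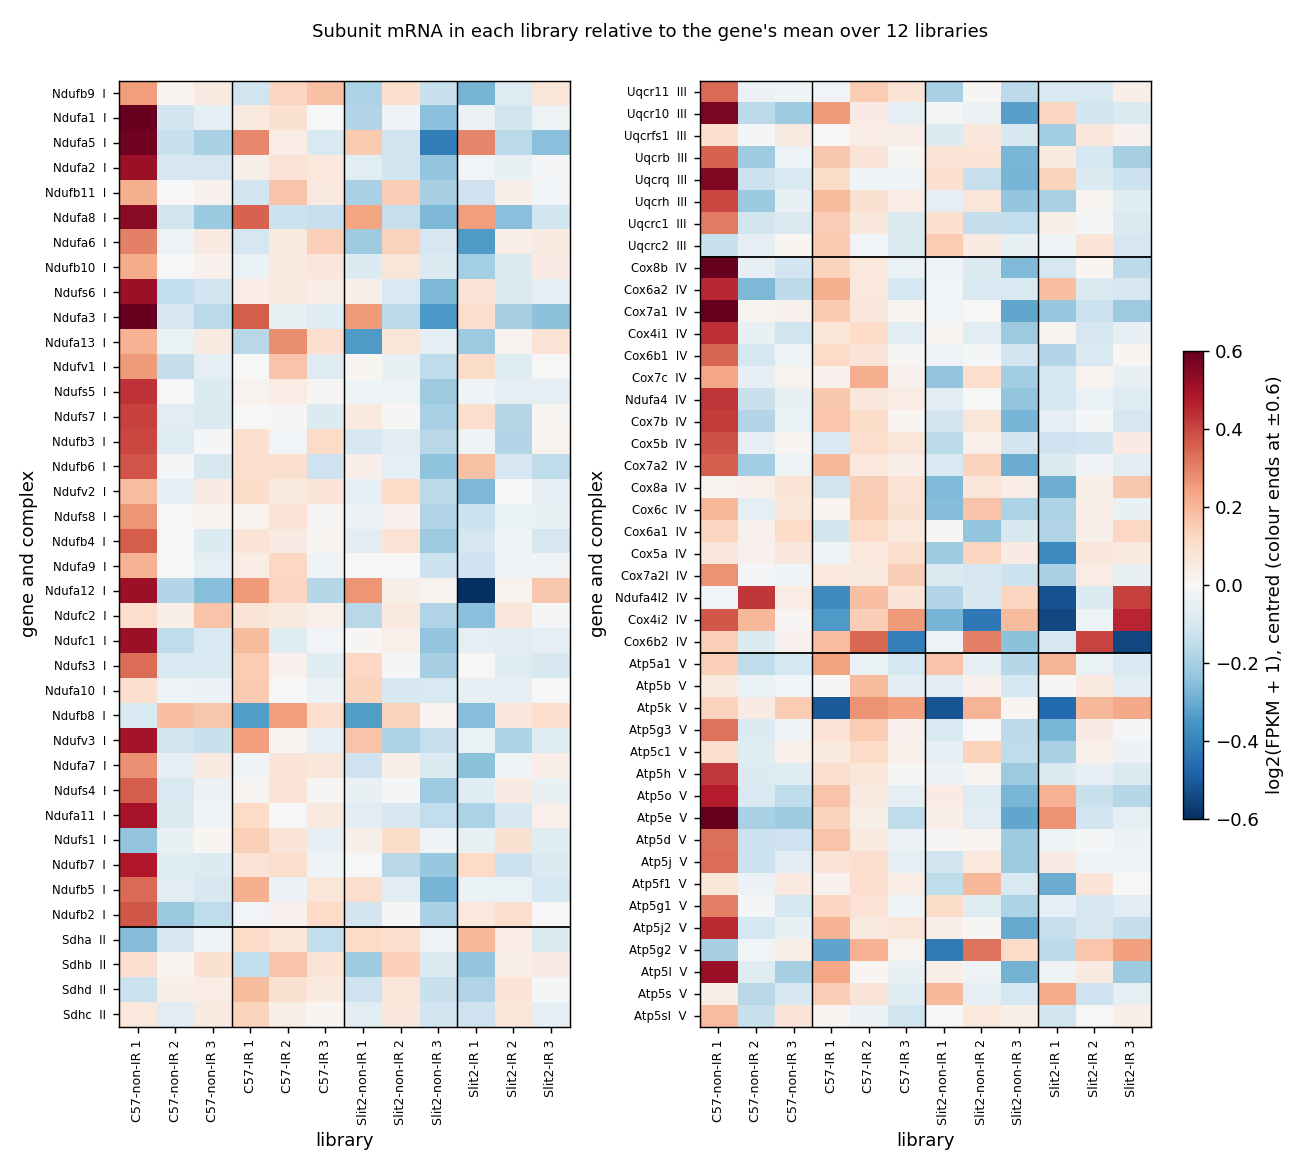
Log2(FPKM + 1) of 81 tested subunits in each library, minus the gene's mean over 12 libraries (red above, blue below, colour ends at 0.6), in order of complex and level. Red fills the column of C57-non-IR replicate 1, while Sdha, Sdhd, Uqcrc2, Ndufs1, Ndufb8, Ndufa4l2 and Atp5g2 were below their mean there.

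No subunit passed the test for IR in either genotype, and the direction of their small median shift depended on single libraries. In C57BL/6J hearts their median log2 fold change was -0.01, with 33 above 0 and 49 below, and the median over all tested genes was 0.00. In Slit2-Tg hearts the median was 0.03, with 52 above 0 and 30 below. By limma, 0 of 82 subunits had an adjusted p under 0.05 in C57BL/6J hearts (0.459% of all tested genes did) and 0 had an unadjusted p under 0.05 (8.96% of all genes). In Slit2-Tg hearts the limma counts were again 0 adjusted (0.525% of all genes) and 0 unadjusted (11.2%). Averaged over genotypes the median was 0.00, and limma called 0 subunits after adjustment (3.49% of all genes) and 0 before it (15.9%). limma-voom on recovered reads also called 0 subunits in these comparisons, adjusted or not.

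The precision of these comparisons was moderate. The median 95% interval of a subunit reached 0.30 to each side for IR within a genotype and 0.21 averaged over genotypes, on the log2 scale. Averaged over genotypes, the interval lay within ±0.5 for 81 of 82 subunits, against 84.7% of all tested genes. Within C57BL/6J hearts the subunit median turned to 0.10, with 11 of 82 below 0, without C57-non-IR replicate 1, and to 0.01, with 36 below, without C57-IR replicate 3. In Slit2-Tg hearts it turned to -0.03, with 55 below, without Slit2-non-IR replicate 3. Without all 4 libraries numbered 1, the medians were 0.09 in C57BL/6J (5 of 82 below 0), 0.04 in Slit2-Tg (13 below) and 0.07 averaged (5 below).

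Catalytic subunits illustrate this. Atp5b, the catalytic beta subunit of ATP synthase, was at 1451, 1355 and 1376 FPKM in C57-non-IR and 1398, 1587 and 1331 in C57-IR. In Slit2-Tg hearts Atp5b was at 1334, 1419 and 1294 FPKM without IR and 1400.3, 1452 and 1333 with IR. The IR and non-IR ranges overlapped in both genotypes. Sdha, the succinate-oxidizing flavoprotein, was at 349, 389 and 411 FPKM in C57-non-IR and 452, 439 and 377 in C57-IR. It was at 453, 447 and 409 FPKM in Slit2-non-IR and 477, 430.5 and 393 in Slit2-IR, and these ranges overlapped too. Group means of Sdha were 383 ± 31.4, 423 ± 40.4, 436 ± 24.3 and 434 ± 42.4 FPKM in the same order (SD, n = 3). IR and non-IR libraries did not overlap for 1 of 82 subunits in C57BL/6J hearts (6.75% of all tested genes were higher in this way) and for 1 in Slit2-Tg hearts (8.65%). In C57BL/6J it was Sdhd, a membrane anchor of complex II, at 280, 315 and 316 FPKM in C57-non-IR and 350, 326 and 319 in C57-IR. In Slit2-Tg it was Ndufa2, an accessory subunit of complex I, at 464, 448 and 413 FPKM in Slit2-non-IR and 482, 473 and 484 in Slit2-IR.

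Slit2-Tg hearts had slightly lower values for most subunits, and no single subunit passed the adjusted threshold. Of 82 subunits, 75 were below 0 on the log2 scale without IR, 75 after IR and 75 in the average of both, whereas 51.1, 50.1 and 50.7% of all tested genes were. The median log2 fold changes were -0.15 without IR, -0.10 after IR and -0.12 averaged, against medians of 0.00 over all tested genes. The comparison without IR, which shares its C57-non-IR libraries with that of IR in C57BL/6J hearts, depended most on 1 library. When C57-non-IR replicate 1 was left out, its median was -0.01 with 48 of 82 below 0, and without Slit2-non-IR replicate 3 it was -0.09 with 70 below. Without C57-non-IR replicate 1 the averaged median was -0.06 with 68 below 0. The comparison after IR does not contain that library, and leaving out each library in turn kept its median between -0.12 and -0.09. Lung epithelium markers summed to 0.0582 to 10.9 FPKM in C57-IR and 0.0751 to 0.173 in Slit2-IR, and their part here was not tested.

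By limma, 0 subunits had an adjusted p under 0.05 without IR (0.0394% of all genes did), after IR (0.0459%) and in the average (0.131%). Unadjusted p under 0.05 was found for 0 subunits without IR (3.19% of all genes), for 0 after IR (3.16%) and for 2 in the average (4.13%). limma-voom also gave 0 adjusted calls in each, and 0, 0 and 2 unadjusted ones. Values of Slit2-IR and C57-IR libraries did not overlap for 18 subunits, all lower in Slit2-IR, which is 22.0% of the 82. Of all tested genes, 3.44% (524) were lower in this way, and 462 were higher. These 18 were Atp5c1, Atp5g1, Atp5h and Atp5j2 of ATP synthase, Uqcrh of complex III, Ndufa1, Ndufa2, Ndufb4, Ndufb5, Ndufs5, Ndufs8 and Ndufv2 of complex I, and Cox7a1, Cox7a2, Cox7a2l, Cox7b, Cox7c and Ndufa4 of complex IV. Without IR it was 3 subunits (Cox6a1, Cox7a1 and Cox7a2l), all lower in Slit2-non-IR. Their share was near the 4.57% of all tested genes that were lower in this way (697, with 705 higher). Subunits share libraries, so these counts are not independent observations. In bulk tissue, fewer cells of a type and less RNA per cell cannot be told apart.

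**Figure D4:**
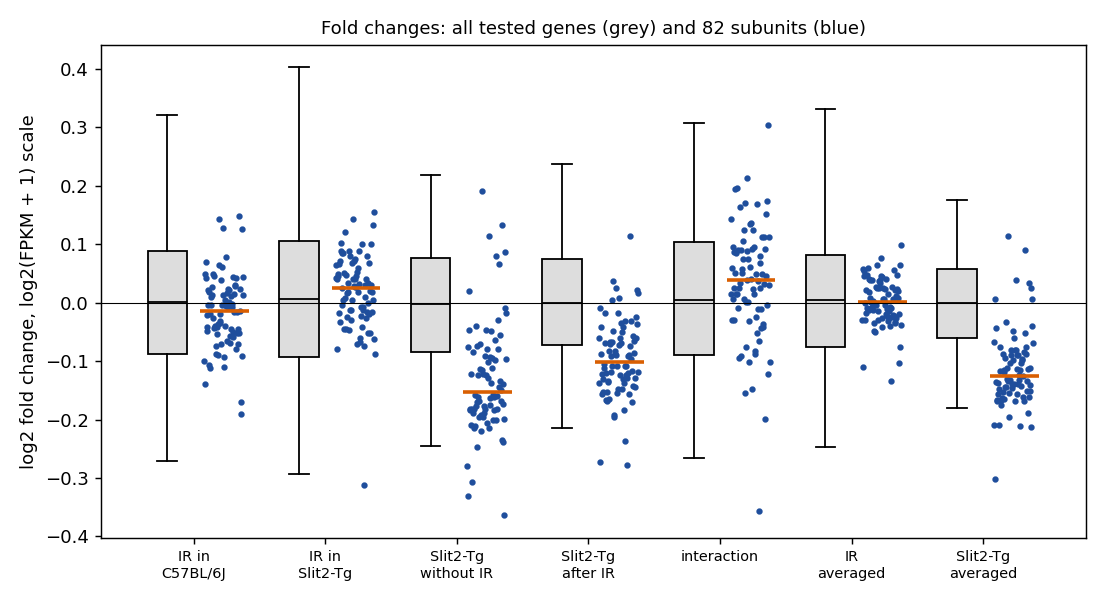
Log2 fold changes of all 15240 tested genes (grey boxes, quartiles, whiskers from the 5th to the 95th percentile) and of the 82 subunits (blue points, orange line at their median) in 7 comparisons. The subunit medians lie at -0.15, -0.10 and -0.12 in the Slit2-Tg comparisons and between -0.01 and 0.04 in the others.

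In the averaged comparison of genotypes the median log2 fold change was -0.13 in complex I, with 34 of 35 genes below 0, -0.13 in complex III with 7 of 8, -0.14 in complex IV with 18 of 18 tested, and -0.09 in complex V with 13 of 17. Complex II had a median of -0.09, with Sdha above 0 and the other 3 genes below. Besides Sdha, at 0.11 with a 95% interval of -0.07 to 0.29, the genes above 0 were Atp5g2, Uqcrc2, Ndufs1, Atp5s, Atp5sl and Atp5a1. Without C57-non-IR replicate 1 the medians were -0.06 in complex I, -0.08 in complex II, -0.03 in complex III, -0.09 in complex IV and -0.03 in complex V. Without Slit2-non-IR replicate 3 complex III was at -0.08 and complex V at -0.06, and without Slit2-IR replicate 1 complex II was at -0.06. Differences between complexes were not tested.

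Cox7a1 was the only subunit whose 6 Slit2-Tg libraries all lay below its 6 C57BL/6J libraries, against 0.177% of all tested genes. It is the muscle form of a small complex IV subunit and lies at chr7:30184144-30186078 (plus strand, ENSMUSG00000074218), with its start inside the window printed above. Its values were 2715, 1789 and 1803 FPKM in C57-non-IR and 1973, 1855 and 1791 in C57-IR. In Slit2-Tg hearts they were 1750 (replicate 1), 1765 and 1424 FPKM without IR and 1513, 1617 and 1523 after IR. The gap between the genotypes was narrow, from 1765 to 1789 FPKM. The averaged log2 fold change was -0.30 (SE 0.12, 95% interval -0.56 to -0.04, limma, adjusted p = 0.999, unadjusted p under 0.05), and -0.33 without IR and -0.27 after IR. Without C57-non-IR replicate 1 the averaged value of Cox7a1 was -0.20 and that without IR was -0.13. The unadjusted p was above 0.05 when C57-IR replicate 1, Slit2-non-IR replicate 3 or Slit2-IR replicate 3 was left out.

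The other subunit with an unadjusted p under 0.05 in that comparison was Cox7a2l. It was at 189, 155 and 154 FPKM in C57-non-IR and at 148, 146 and 143 in Slit2-non-IR, which do not overlap. After IR it was at 164, 163 and 174 FPKM in C57-IR and 137, 161 and 152 in Slit2-IR, which also do not overlap. Its averaged log2 fold change was -0.17 (SE 0.07, 95% interval -0.33 to -0.01, limma, adjusted p = 0.999). Cox8b, the most abundant subunit, was at 3499, 2190.0 and 2092 FPKM in C57-non-IR, 2487, 2371 and 2207 in C57-IR, 2230.0, 2132 and 1883 in Slit2-non-IR, and 2109, 2282 and 2031 in Slit2-IR, so its genotypes overlapped. The muscle partner Cox6a2 was at 3085, 1872 and 2024 FPKM in C57-non-IR and 2228, 2119 and 2117 in Slit2-non-IR, also overlapping.

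Whether Slit2 altered the response to IR was tested by the interaction. The subunit median was 0.04, and limma called 0 subunits after adjustment (0.0% of all tested genes) and 0 before it (1.86%), as did limma-voom. The sign of that median depended on single libraries, as it was -0.08 with 71 of 82 below 0 without C57-non-IR replicate 1, and -0.01 with 44 below without Slit2-non-IR replicate 3. The median interval reached 0.42 to each side, so smaller differences in response could be missed, and at the adjusted threshold larger ones too. The largest negative estimate, -0.36 for the accessory complex I subunit Ndufa12, had an interval of -1.16 to 0.45. Ndufa12 was at 98.7 FPKM in Slit2-IR replicate 1, the library with the high atrial signal, and at 144 to 246 in the other 11.

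Other gene families of the chain were set beside the subunits, with some genes of the lists named. The 13 mitochondrially encoded subunits had a median log2 fold change of -0.25 in the averaged Slit2-Tg comparison, with 11 below 0, of which mt-Nd1 and mt-Nd2 had an unadjusted p under 0.05 and none an adjusted one by limma. The complex I gene mt-Nd3 was at 2241, 649 and 571 FPKM in C57-non-IR and 540.0, 354 and 283 in C57-IR. In Slit2-Tg hearts mt-Nd3 was at 644, 568 and 399.8 FPKM without IR and 286, 301 and 219 with IR. The IR and non-IR libraries of mt-Nd3 did not overlap in either genotype, and its averaged log2 fold change was -1.15 (SE 0.32, limma, adjusted p = 0.0783, 0.0158 to 0.18 over the alternatives). Cytosolic ribosomal protein genes, another family of abundant short mRNAs, had a median of -0.15 in the averaged Slit2-Tg comparison, with 77 of 79 tested below 0 and 11 at an unadjusted p under 0.05. The median listed length was 1522.5 bases for the subunits against 3971 for all tested genes, and the part of length in these medians was not tested.

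Assembly factors, the proteins that build the complexes, were tested for 44 of 46 genes and had a median of -0.05 in the averaged Slit2-Tg comparison, with 4 lower and 0 higher at an unadjusted p under 0.05. The lowest was Ndufaf1, an assembly factor of complex I, at 30.0, 29.5 and 28.2 FPKM in C57-non-IR, 33.5, 27.0 and 26.9 in C57-IR, 22.1, 21.4 and 19.6 in Slit2-non-IR and 19.3, 23.2 and 16.2 in Slit2-IR. All 6 Slit2-Tg libraries of Ndufaf1 were below all 6 C57BL/6J libraries. Ndufaf1 lies on chromosome 2, and whether strain sequence near it differs between the lines was not tested. Its averaged log2 fold change was -0.51 (SE 0.09, limma, adjusted p = 0.0759), and the adjusted p ranged from 0.0259 to 0.487 over the alternative settings. Coa6, Ndufaf2 and Ndufaf5 were the other 3.

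Of 19 genes for electron carriers and ubiquinone synthesis, Coq10b, a ubiquinone-binding protein, rose with IR averaged over genotypes by 0.71 (SE 0.14, limma, adjusted p = 0.0223). It was at 7.0015, 7.81 and 8.59 FPKM in C57-non-IR and 12.3, 16.6 and 11.5 in C57-IR, and at 8.72, 7.04 and 7.36 in Slit2-non-IR and 14.6, 17.4 and 9.06 in Slit2-IR, with no overlap. Its adjusted p ranged from 0.00343 to 0.13 over the alternatives. Cytochrome c (Cycs) and cytochrome c1 (Cyc1, a complex III subunit outside the naming rule) had averaged IR values of 0.09 and 0.01 and averaged Slit2-Tg values of -0.11 and -0.06, none with an unadjusted p under 0.05.

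Of 21 regulators of mitochondrial biogenesis, Myc rose with IR in both genotypes, from 2.31, 2.57 and 2.49 FPKM to 10.9, 35.8 and 13.7 in C57BL/6J and from 1.21, 3.77 and 2.79 to 28.1, 21.1 and 11.3 in Slit2-Tg. Its log2 fold changes were 2.43 (limma, adjusted p = 0.0459) and 2.54 (adjusted p = 0.0379), and 2.48 averaged (adjusted p = 0.00199). Adjusted p-values within a genotype ranged up to 0.175 and 0.186 over the alternatives. Ppargc1a, the coactivator PGC-1 alpha that drives mitochondrial gene expression, was at 8.94, 11.8 and 15.2 FPKM in C57-non-IR, 12.9, 15.9 and 14.0 in C57-IR, 15.4, 13.4 and 9.68 in Slit2-non-IR, and 9.17, 8.74 and 7.86 in Slit2-IR. The Slit2-IR libraries of Ppargc1a were all below those of the 2 groups that share a condition with it. Its log2 fold change was -0.67 after IR in Slit2-Tg against C57BL/6J (SE 0.19, limma, adjusted p = 0.9996), and its interaction was -0.77 (SE 0.26, adjusted p = 0.9998), both at an unadjusted p under 0.05. Nrf1, Gabpa, Tfam and Esrra, the factors that bind or serve these promoters and the mitochondrial genome, had averaged IR values of -0.04, 0.06, -0.05 and 0.08, none with an unadjusted p under 0.05. In the averaged Slit2-Tg comparison 15 of the 21 regulators were above 0. Ppargc1b was the only one there at an unadjusted p under 0.05, at 0.43 (limma, adjusted p = 0.999). Averaged over genotypes, Pprc1 and Hif1a were at 0.29 and 0.36 with IR (limma, adjusted p = 0.0587 and 0.0701). Gabpb2 was at -0.16 (adjusted p = 0.31).

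Subunit values also moved with the replicate number of the labels, whose meaning the labels do not give. In the F test of limma for replicate number beside the group means, added after the data were seen, 4 of 82 subunits passed the adjusted threshold, against 2.11% of all tested genes. Ndufa3, Ndufa5 and Ndufa8, accessory subunits of complex I, were higher in replicate 1, and Ndufb8, another accessory subunit, was lower. Ndufa8 was at 694, 609, 562 and 567 FPKM in the replicates numbered 1, for C57BL/6J without and with IR and then Slit2-Tg without and with IR, and at 396 to 440.3 in the other 8 libraries. Ndufb8 was at 105, 88.4, 88.3 and 93.4 FPKM in those 4 libraries and at 113 to 133 in the other 8. Neither gene's values overlapped between the replicates numbered 1 and the others. The log2 differences of replicate 1 from the mean of 2 and 3 were 0.52 for Ndufa8 (limma, adjusted p = 0.0207), 0.50 for Ndufa3 (adjusted p = 0.0269), 0.49 for Ndufa5 (adjusted p = 0.0335) and -0.38 for Ndufb8 (adjusted p = 0.0318).

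With 1 library left out, that test called 0 to 6 subunits, and no more than 1 for each of 10 of the 12 libraries (all but C57-non-IR replicates 1 and 2). limma-voom called 4. Replicate 1 was the highest of its group in all 4 groups for 16 subunits, 19.5% of the 82 against 6.4% of all tested genes, and the lowest in all 4 for Atp5g2, Cox8a, Ndufa4l2 and Ndufb8, against 6.58%. The 16 held members of complexes I, III, IV and V and included Cox6a2, Atp5a1, Uqcrc1 and Ndufs3. Leukocyte markers summed to 194 to 277 FPKM in the replicates numbered 1 and 299 to 441 in the other 8 libraries. In all 4 groups replicate 1 also had the highest sum of ventricular cardiomyocyte markers (27742 to 33174 FPKM) and the lowest sum of fibroblast markers (113 to 194 FPKM). Lung epithelium markers summed to at most 0.098 FPKM in the replicates numbered 1 and to 5.48 to 12.2 in 5 of the other 8. These 5 were replicates 2 and 3 of C57-non-IR and of C57-IR, and replicate 2 of Slit2-non-IR. In Slit2-IR the lung markers summed to 0.0751 to 0.173 FPKM, so this signal also differed between the genotypes. The part of these markers in the differences was not tested. Ndufa8 and Ndufb8 were picked by the replicate number test, so the size of that difference cannot be weighed against those with IR or Slit2. None of their differences with IR or Slit2 had an unadjusted p under 0.05.

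**Figure D5:**
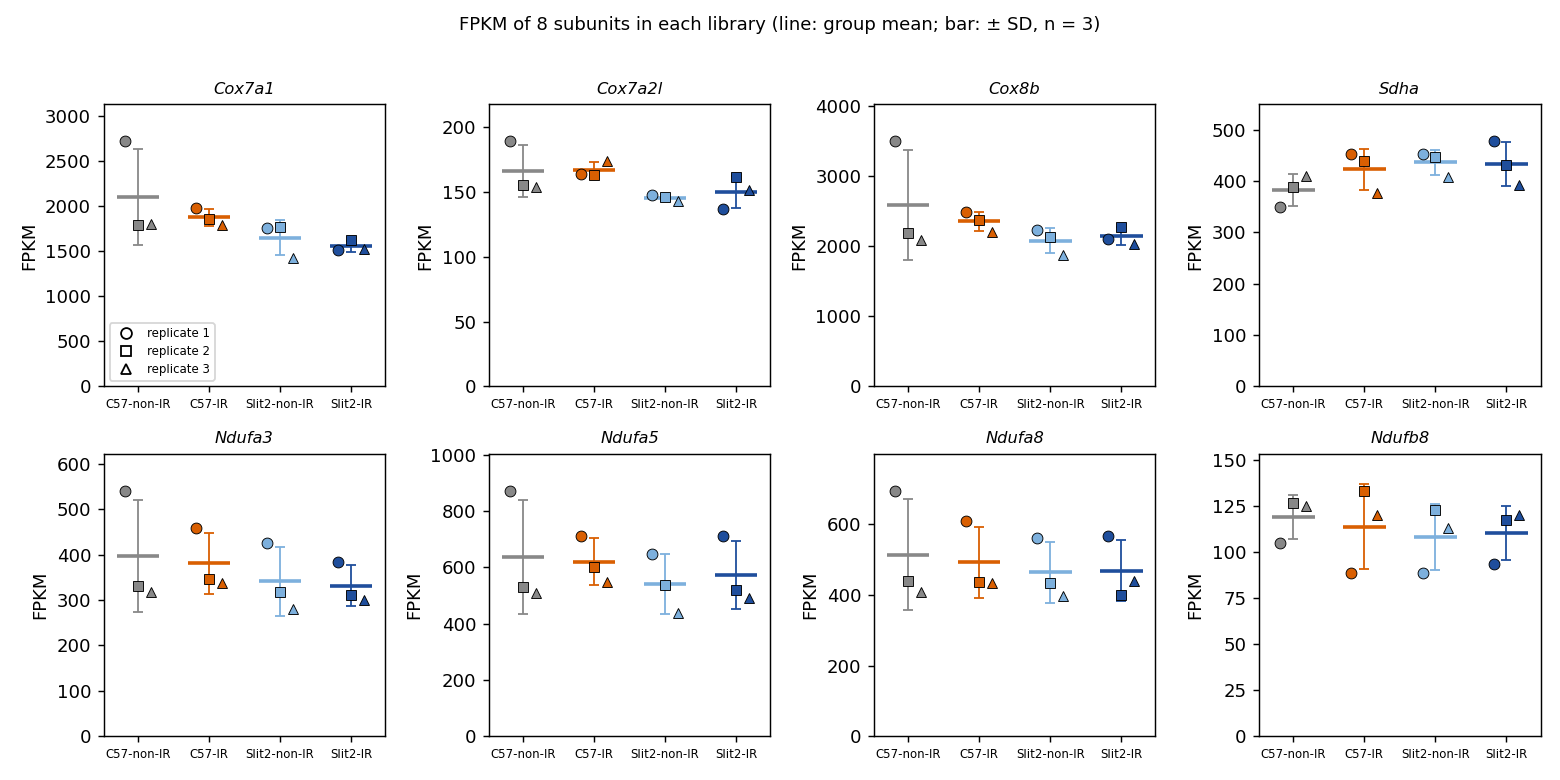
FPKM of 8 subunits in each library by group (circles, squares and triangles for replicates 1, 2 and 3, lines for group means, bars for ± SD, n = 3). Cox7a1 was at most 1765 in every Slit2-Tg library, and the circles of Ndufa8 and Ndufb8 stand apart from the other points in all 4 groups.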

How the data were processed

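The authors deposited FPKM per gene and library, with Ensembl identifiers, gene lengths and GRCm38 coordinates. The submitters' processing notes name HISAT2 and mm10, and the counter, annotation release and use of strand are not given in the sources used here. Genes that overlap or have near-identical copies are therefore uncertain. A NEBNext Ultra kit made the libraries, which were sequenced as paired ends, and the labels call the 3 samples of a group independent. FPKM times gene length rose in whole steps (tolerance 0.02 reads) in 100% of values, and the steps followed median-of-ratios size factors. Group means were fitted on log2(FPKM + 1) by limma with its variance trend, all 4 groups in 1 fit, Benjamini-Hochberg adjustment over 15240 genes and no covariate. Fold changes on this scale understate those of low genes. Single values were compared by exact permutation tests. There were 0 unused columns of per-library values.

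The members and gene lists were chosen with earlier results of these data known. Subunits were named as the highest of each complex, all of complex II, alternative forms, core subunits, those past a threshold and those not tested. Other genes were named from the lists by the same threshold. Ndufa12, Ndufaf1, mt-Nd3, Sdhd, Ppargc1b, Pprc1, Hif1a, Gabpb2 and subunits without overlap were named after their values were seen.

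Same-numbered libraries deviated together, with correlations over 0.1 in all 3 pairs for IR in Slit2-Tg hearts (0.291, 0.294 and 0.143) and for Slit2-Tg after IR (0.285, 0.153 and 0.362). In C57BL/6J with IR and in Slit2-Tg without IR the lowest were 0.0833 and 0.0377. The group comparisons used no pairing, and the replicate number entered them as a block only among the alternatives.

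Alternatives were a pseudocount of 0.1, other filters, only the libraries compared, the replicate block, TMM scaling, limma-voom on recovered reads and leaving out each library. The fit was tested on simulated data. Planned protein comparisons were not made, and the values of 1 subunit are not reported here, though it was kept in the counts and medians. limma 3.58.1 ran in R 4.3.3, figures were drawn with matplotlib 3.10.9, and tables were joined with pandas 2.3.3 in Python 3.11.15.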

Additional observations from a re-analysis of the deposited data

How the results depend on the processing

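No subunit passed the adjusted threshold in any of the 7 comparisons of groups under any alternative run. The subunit medians moved by less than the pooled SD of 0.11 under every alternative that kept all libraries. Leaving out 1 library in turn gave medians of -0.089 to 0.10 for IR in C57BL/6J hearts, -0.22 to -0.011 for Slit2-Tg without IR and -0.077 to 0.11 for the interaction. The ranges were -0.033 to 0.057 for IR in Slit2-Tg hearts and -0.029 to 0.063 for IR averaged, so the sign of the median turned in all 3 comparisons of IR and in the interaction. In each of the first 3 the value that moved beyond the pooled SD was the one without C57-non-IR replicate 1 (0.10, -0.011 and -0.077), and the cause was not tested. Subunits at an unadjusted p under 0.05 then numbered 0 to 1 for IR in C57BL/6J hearts, 0 to 4 for Slit2-Tg without IR, 0 to 2 after IR, 0 to 2 for IR averaged, and 0 to 7 for Slit2-Tg averaged. In the fit of all libraries, 8.96, 3.19, 3.16, 15.9 and 4.13% of all tested genes were called in these comparisons, in the same order. Shares of all genes under the alternatives are not given here, so these counts and those that follow cannot be weighed against them. With only the libraries compared there were 2 subunits at an unadjusted p under 0.05 for Slit2-Tg after IR. With the replicate number as a block (replicate block) they numbered 2 for Slit2-Tg without IR and 5 for Slit2-Tg averaged, and the block changed no other call. Without all 4 libraries numbered 1, an alternative chosen after seeing the data, the median for Slit2-Tg without IR was -0.025, those for IR were 0.095 in C57BL/6J, 0.042 in Slit2-Tg and 0.066 averaged, that of the interaction was -0.054, and the unadjusted counts were 1, 1, 1, 3 and 1 for IR in C57BL/6J, IR in Slit2-Tg, Slit2-Tg without IR, IR averaged and Slit2-Tg averaged. The replicate number test called 0 subunits with no filter beyond 1 read, a setting that tests more genes, and 0 to 6 when 1 library was left out, where fewer samples remain. With 3 libraries a group and a median 95% interval of ±0.30 within a genotype, smaller changes in a single subunit could be missed. At the adjusted threshold larger ones could be missed too.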
